A study of Mus musculus with 3 samples.

Results

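Transcript levels of 37 genes of serine, folate, nucleotide and polyamine synthesis were measured in 3 lymphomas of pBIC2 mice. The genes were chosen by name, as the enzymes of these connected pathways, and all 37 were found among the 37646 genes of the deposited count tables. The study concerns mouse models of diffuse large B cell lymphoma of the activated B cell type (ABC-DLBCL). The pBIC2 genotype, on the C57BL/6 strain, combines floxed Trp53 (p53F/F), floxed Prdm1, the gene of Blimp1 (Blimp1F/F), an activatable, constitutively active IKK2 (IKK2castopF/stopF) and Cre recombinase expressed from the immunoglobulin Cγ1 locus (Cg1Cre/+), together with a human BCL2 transgene under the Eµ enhancer (Eu-hBCL2tg/+). All 3 libraries carry every one of these alleles, so none serves as a control for another. Live B220+GFP+ cells were sorted from fresh spleens. The labels describe the donors of the series as moribund or control mice and give no ages. The Cγ1 locus is switched on in B cells responding to antigen, so the model starts from such cells. The 3 libraries are called tumours 1, 2 and 3, with 1 library each. The labels do not say that they came from separate mice. Normal germinal centre B cells, which the series names as its comparison, were not analysed here, so the values are levels and differences among lymphomas with no test between groups.

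Serine is made from a glycolytic intermediate and gives up a carbon unit to folate, mostly in mitochondria. Folate carries that carbon to the purine ring and to thymidylate, while pyrimidines are built from glutamine, bicarbonate and aspartate. Ribonucleotide reductase then turns ribonucleotides into the deoxynucleotides of DNA, and polyamines are made alongside from ornithine. Dividing B cells depend on these routes, and Myc, E2F and ATF4 are well known regulators of many of the enzymes.

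The libraries held 15576975, 16477997 and 17014022 gene counts, of which the 37 genes took 0.471%, 0.501% and 0.429%. Levels are CPM, the counts of a gene scaled to the TMM-corrected size of its library, given as mean ± SD with n = 3. The cells carried B cell markers, with all 12 pan B cell genes at 10 CPM or more in every tumour. Markers of other cell types were detected to unequal extents. Whether they came from other cells or from the lymphoma cells was not tested. The summed level of 10 T cell markers was 128, 283 and 1333 CPM in tumours 1, 2 and 3. Of the 10, 9 were highest in tumour 3, and Cd3e was at 0 counts in tumour 1. Of all genes tested, those that passed a filter on low counts, 36.1% were highest in tumour 3. The filter was passed by 7 of the 10 markers. Cd2 (34.9, 211 and 389 CPM) and Cd5 (81.2, 33.6 and 16.3 CPM, highest in tumour 1) made up most of the sums in tumours 1 and 2, and the median of the 10 was 1.18, 3.89 and 93.0 CPM in tumours 1, 2 and 3. The summed level of 10 macrophage and monocyte markers was 35.6, 403 and 183 CPM in tumours 1, 2 and 3. Of the 10, 9 were highest in tumour 2 (29.5% of all genes tested were), and 4 passed the filter. Cd14 was at 0 counts in tumours 1 and 3. The 9 neutrophil markers summed to at most 43.8 CPM, in tumour 3, and 8 of them were at 0 in tumour 1. The mitochondrial genome gave 6.10%, 5.09% and 4.21% of counts. Of 10 immediate early and heat shock genes 7 were highest in tumour 3, beside 36.1% of all genes tested. The part of these differences in the results below was not tested. In bulk RNA, fewer cells of a type and less RNA per cell cannot be told apart.

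Nearly all of the 37 chosen genes were expressed in every lymphoma. Of the 37 genes, 34 were at 10 CPM or more in all 3 tumours, where 68.5% of the 11273 genes that passed the filter on low counts reached that level. At 100 CPM or more in all 3 were 12 of 37, beside 15.5% of all genes tested. The median over the 37 genes of the mean level was 91.8 CPM, against 36.5 CPM over all genes tested. The 3 genes under 10 CPM in some tumour were Impdh1, Ctps2 and Nme2. Impdh1, with 9 counts in tumour 1, was the 1 gene of the 37 that did not pass the filter.

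Per kilobase of exon (RPKM, with GENCODE exons merged), Srm and Shmt2 led the 37 genes. Srm, spermidine synthase, was at 155 ± 87.6 RPKM and ranked 197 among 11273 genes. Shmt2, the mitochondrial serine hydroxymethyltransferase, was at 144 ± 68.7 RPKM and ranked 228. Their ranges over the tumours overlapped, so their order is not resolved. Odc1 (80.4 ± 43.5 RPKM), Paics (67.1 ± 14.3 RPKM) and Prps2 (59.2 ± 17.0 RPKM) came next. At the other end, Dhodh was at 3.13 ± 0.545 RPKM, Impdh1 at 3.21 ± 4.17 RPKM and Ctps2 at 4.77 ± 3.0 RPKM. The median over the 37 genes was 25.9 RPKM, against 8.27 RPKM over all genes tested.

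**Figure D1:**
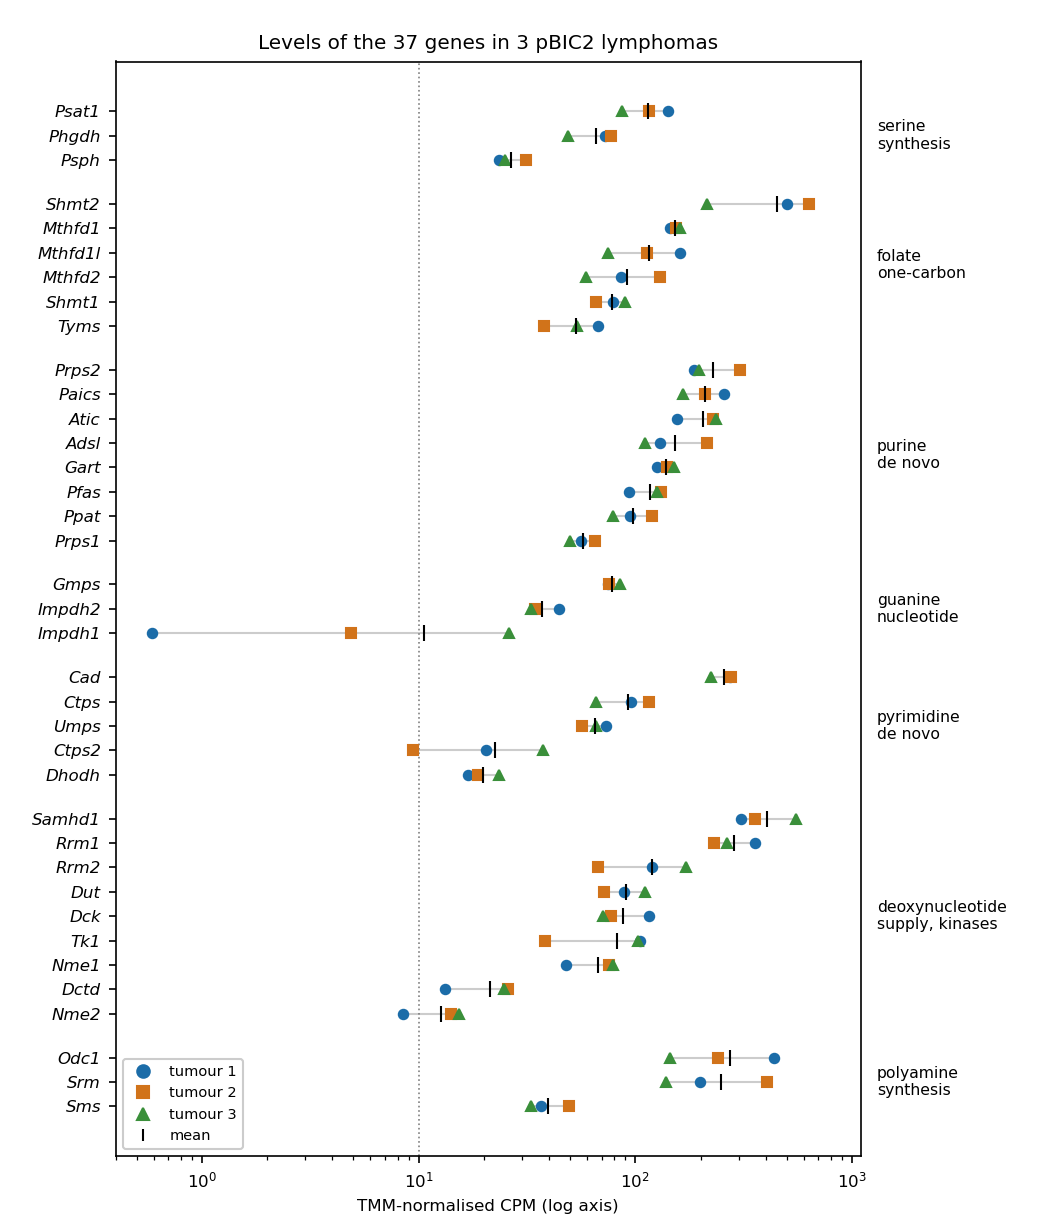
TMM-normalised CPM (log axis) of the 37 genes in tumours 1 (circles), 2 (squares) and 3 (triangles), with the mean as a black bar, grouped by role; the dotted line marks 10 CPM. Most genes lie between 10 and 500 CPM with their tumours close together, and Impdh1 spans 0.590 to 26.2 CPM.

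No tumour was highest or lowest throughout. The summed level of the 37 genes was 4808, 5015 and 4199 CPM in tumours 1, 2 and 3. Tumour 1 was highest for 10 genes (34.4% of all genes tested were highest there), tumour 2 for 14 (29.5%) and tumour 3 for 13 (36.1%). Tumour 1 was lowest for 13 (35.5%), tumour 2 for 8 (31.8%) and tumour 3 for 16 (32.6%). These counts over the 37 genes are descriptions and were not tested against the shares over all genes. They include Impdh1, which did not pass the filter, as highest in tumour 3 and lowest in tumour 1. A range of at least 2-fold between the highest and the lowest tumour was found for 9 of 37 genes, against 34.2% of all genes tested and 23.3% of the genes at 10 CPM or more in every tumour. Among the 34 members at that level it was 7, and among the 36 members that passed the filter it was 8. The median SD of log2 CPM was 0.36 over the 37 genes and 0.39 over all genes tested. The 9 genes were Shmt2, Mthfd1l, Mthfd2, Impdh1, Ctps2, Rrm2, Tk1, Odc1 and Srm. The smallest range among them was 2.13-fold (Mthfd1l), and the largest range outside them was 1.95-fold (Dctd). Their number was 4 without tumour 2 and 4 without tumour 3.

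**Figure D2:**
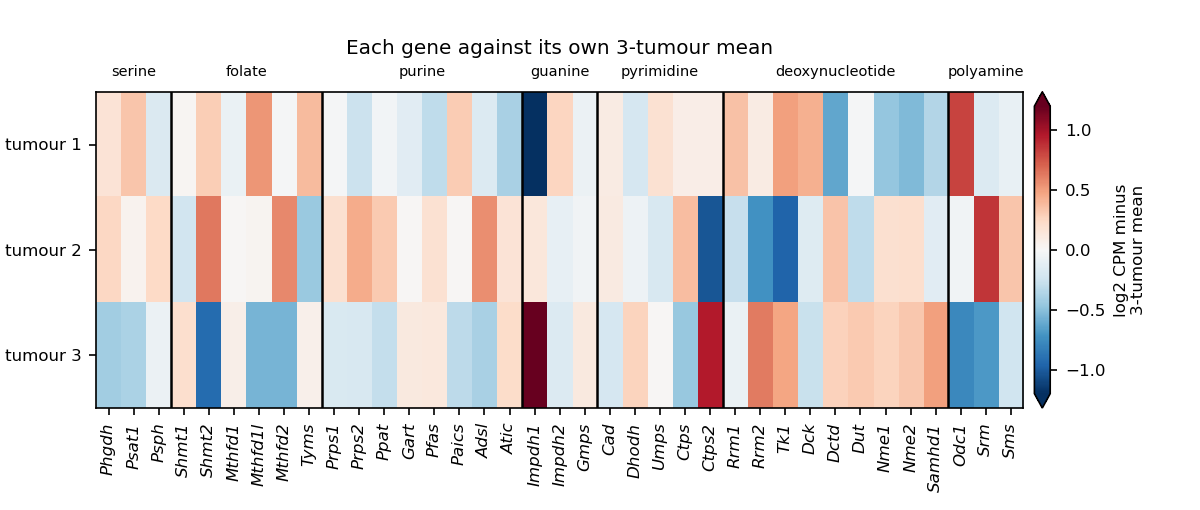
Log2 CPM of each of the 37 genes minus its own mean over the 3 tumours (colour, limited to ±1.2), by role. Red is above and blue below that mean; Shmt2, Mthfd1l, Mthfd2, Odc1 and Srm are blue in tumour 3, and Tyms, Rrm2 and Tk1 are blue in tumour 2.

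The genes of serine synthesis were lowest or near lowest in tumour 3. Their median level was 72.8, 77.0 and 48.7 CPM in tumours 1, 2 and 3. Phgdh, which encodes the first enzyme of the route, was at 72.8, 77.0 and 48.7 CPM in tumours 1, 2 and 3. Psat1, the aminotransferase of the middle step, was at 142, 116 and 86.5 CPM in tumours 1, 2 and 3. For both genes tumour 3 was lowest, and the other tumours were closer to each other than to it. Psph, the phosphatase of the last step, was at 23.5, 31.3 and 25.2 CPM in tumours 1, 2 and 3, highest in tumour 2, with a range of 1.33-fold. None of the 3 ranges reached 2-fold. Phgdh is uncertain in level, since 47.8% of the 50-base stretches of its transcripts also occur in transcripts of other genes, mostly the pseudogene Gm7901 (38.3%). Psph shares 8.82% with Cct6a.

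In folate metabolism the mitochondrial and cytosolic enzymes did not vary alike. Shmt2 (ENSMUSG00000025403.5, chromosome 10, 127517123 to 127522444 in mm10) was at 500.0, 632 and 214 CPM in tumours 1, 2 and 3. Tumour 3 stood apart on the low side, 2.95-fold below tumour 2. Mthfd2, the mitochondrial methylene-tetrahydrofolate dehydrogenase (ENSMUSG00000005667.8, chromosome 6, 83305691 to 83325908), was at 86.1, 129.8 and 59.4 CPM in tumours 1, 2 and 3. Mthfd1l, which releases formate in mitochondria (ENSMUSG00000040675.17, chromosome 10, 3973118 to 4167081), was at 160.3, 113 and 75.0 CPM in tumours 1, 2 and 3. These 3 mitochondrial genes were lowest in tumour 3, as 32.6% of all genes tested were. Shmt2 and Mthfd2 were highest in tumour 2, and Mthfd1l was highest in tumour 1. The cytosolic genes did not share this order. Shmt1, the cytosolic serine hydroxymethyltransferase, was at 79.1, 66.1 and 89.5 CPM in tumours 1, 2 and 3, highest in tumour 3. Mthfd1, the trifunctional cytosolic folate enzyme, was at 144, 154 and 161 CPM in tumours 1, 2 and 3, a range of 1.11-fold, the smallest of the 37 genes. Tyms, thymidylate synthase, was at 67.5, 38.0 and 54.0 CPM in tumours 1, 2 and 3, lowest in tumour 2.

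Ratios within a library need no scaling between libraries. Per kilobase of merged exons, Shmt2 over Shmt1 was 7.90, 11.9 and 2.99 in tumours 1, 2 and 3 (log2 2.71 ± 1.03). Mthfd1l over Mthfd1 was 1.11, 0.736 and 0.468 in tumours 1, 2 and 3 (log2 -0.46 ± 0.62). Both ratios were lowest in tumour 3, where Shmt2 was still the higher of its pair. Other mitochondrial folate genes did not follow, since Aldh1l2 was highest in tumour 3 (2.82, 9.05 and 26.2 CPM) and Mthfd2l was lowest in tumour 1. Mthfd2 exceeded its paralogue Mthfd2l (10, 72 and 28 counts in tumours 1, 2 and 3) by a factor of 250.4, 56.6 and 70.3 in tumours 1, 2 and 3, and the 10 counts of Mthfd2l in tumour 1 leave that first ratio imprecise.

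Bases upstream of the starts of 3 of the serine and mitochondrial folate genes that were lowest in tumour 3 are shown. They are the 100 bases before a RefSeq start (GRCm38.p6), 5′ to 3′ on the gene's strand, with CCAAT or its reverse complement ATTGG in capitals: Psat1 at chr19:15925060-15925159, Mthfd2 at chr6:83317605-83317704 and Phgdh at chr3:98339970-98340069, all on the minus strand. Psat1 has another RefSeq start, with neither motif in its 100 bases (chr19:15924623-15924722), and the window shown is the one with a match. Exons annotated in GENCODE overlap 21 of the 100 bases for Phgdh and 2 for Mthfd2. The CCAAT of Phgdh starts 23 bases before the RefSeq start, so it reaches into the annotated exon.
Psat1: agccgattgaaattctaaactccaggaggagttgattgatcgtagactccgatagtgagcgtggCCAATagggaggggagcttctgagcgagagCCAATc
Mthfd2: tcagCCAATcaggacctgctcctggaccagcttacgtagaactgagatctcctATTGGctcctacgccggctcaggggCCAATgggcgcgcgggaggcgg
Phgdh: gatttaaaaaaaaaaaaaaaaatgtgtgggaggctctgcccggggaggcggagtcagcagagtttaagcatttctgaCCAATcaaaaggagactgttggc
The promoter table has 44 starts for 34 of the 37 genes. A CCAAT box on either strand lay within 250 bases before 16 of the 44 (36.4%, for 15 genes), beside 36.1% of the promoters of genes tested and 33.8% of all 32851 promoters, so the share was near the background. An ATF4-C/EBP element, written TGATGNAA, was found at 1 of 44, of Prps1 (2.27%, beside 2.01% of the promoters of genes tested and 3.45% of all). A match is a match of letters only.

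Of the 8 purine synthesis genes, 5 were highest in tumour 2 (29.5% of all genes were), and the multifunctional enzymes were highest elsewhere. The 8 genes had a median of 128, 175 and 138 CPM in tumours 1, 2 and 3. Prps2, which makes the activated ribose PRPP, was at 186, 305 and 196 CPM in tumours 1, 2 and 3. Adsl, adenylosuccinate lyase, was at 130.0, 215 and 111 CPM in tumours 1, 2 and 3. Ppat, the first committed enzyme, was at 94.2, 119.8 and 79.0 CPM in tumours 1, 2 and 3. In all 3 tumour 2 was highest, and the range was at most 1.93-fold, for Adsl. Pfas (93.7, 131 and 126 CPM in tumours 1, 2 and 3) and Prps1 (56.4, 64.9 and 50.1 CPM) had the same highest tumour, with the margin over tumour 3 small for Pfas. The trifunctional enzyme Gart (126, 140.5 and 151 CPM) and Atic, which closes the purine ring (155, 227 and 236 CPM), were highest in tumour 3 and lowest in tumour 1. Paics, the enzyme of the middle steps, differed from both patterns at 256, 209 and 166 CPM, highest in tumour 1. None of the 8 genes had a 2-fold range. Ppat and Paics lie head to head and share 272 exon bases on opposite strands, Gart shares 19.7% of its exon bases with the antisense gene Gm15964, and Prps1 shares 9.93% of its 50-base stretches with Prps1l3, so reads of these pairs may not be told apart.

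Of the guanine nucleotide genes, 1 varied more than any other of the 37. Impdh1, an isoform of the IMP dehydrogenase that commits purines to guanine nucleotides (ENSMUSG00000003500.13, chromosome 6, 29200434 to 29216364), had 9, 80 and 456 counts. Its level was 0.59, 4.86 and 26.2 CPM in tumours 1, 2 and 3, with exact 95% Poisson intervals of 0.27 to 1.12 CPM, 3.85 to 6.05 CPM and 23.9 to 28.7 CPM. The 3 intervals, which cover counting error only, did not overlap. T cell markers were also highest in tumour 3, and the order of the tumours was the same as for their summed level and their median. The summed neutrophil markers (0.197, 16.9 and 43.8 CPM) had that order too. So did the summed immediate early and heat shock genes (2203, 3586 and 5556 CPM). The part of any of these lists in the order of Impdh1 was not tested. Impdh2, the isoform usually dominant in dividing cells, was at 44.2, 34.4 and 33.0 CPM in tumours 1, 2 and 3, with 39.3% of its 50-base stretches shared with the pseudogene Impdh2-ps. Per kilobase, Impdh2 exceeded Impdh1 by a factor of 80.3, 7.59 and 1.35 in tumours 1, 2 and 3 (log2 3.23 ± 2.96). Of the 3 tumours, the isoforms were closest in level in tumour 3. How close depends on the length used, since the mean was log2 3.61 with the longest transcript of each gene. Gmps, GMP synthetase, was nearly even at 74.5, 75.9 and 84.9 CPM in tumours 1, 2 and 3.

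Pyrimidine synthesis was steady at its first steps and divided at its last. Cad, which carries the first 3 activities, was at 275, 276 and 223 CPM in tumours 1, 2 and 3. Umps, which makes UMP, was at 73.6, 56.9 and 65.6 CPM in tumours 1, 2 and 3. Dhodh, the mitochondrial dehydrogenase between them, was low in every tumour at 17.0, 18.8 and 23.6 CPM in tumours 1, 2 and 3. The ranges of these 3 genes were at most 1.39-fold. The CTP synthases went opposite ways. Ctps was at 95.2, 116 and 65.7 CPM in tumours 1, 2 and 3, highest in tumour 2 and lowest in tumour 3. Ctps2 (ENSMUSG00000031360.14, chromosome X, 162901238 to 163032508) was at 20.5, 9.48 and 37.6 CPM in tumours 1, 2 and 3, lowest in tumour 2 and highest in tumour 3, a range of 3.93-fold. The ratio of Ctps to Ctps2 per kilobase was 6.61, 17.4 and 2.49 in tumours 1, 2 and 3 (log2 2.72 ± 1.40).

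**Figure D3:**
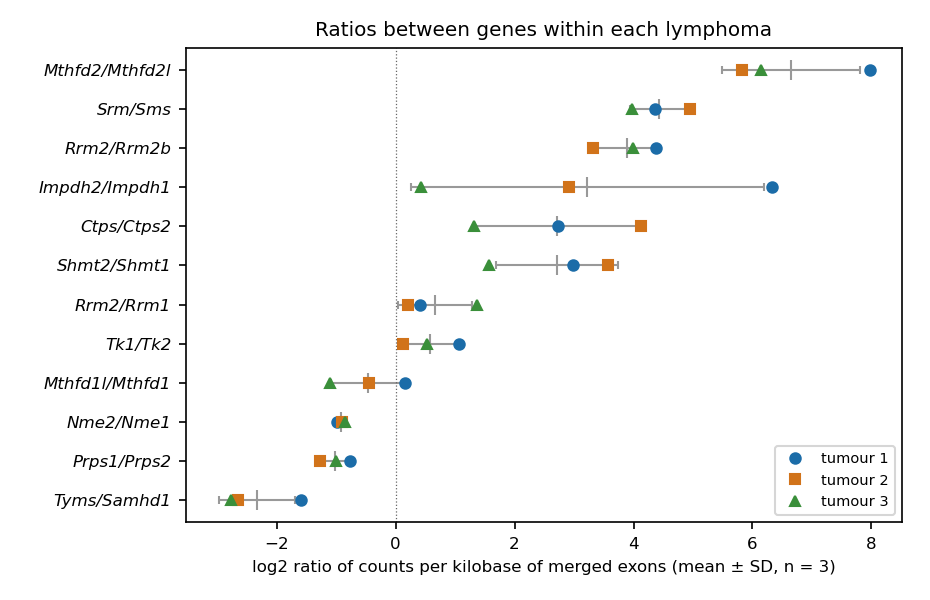
Log2 ratio of counts per kilobase of merged exons for 12 pairs of genes within each lymphoma; symbols are tumours and bars the mean ± SD. Impdh2 over Impdh1 is the widest (log2 6.33, 2.92 and 0.43 in tumours 1, 2 and 3), and Nme2 over Nme1 the narrowest.

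The genes that supply deoxynucleotides were split between S phase enzymes, low in tumour 2, and others. Rrm2, the cell cycle-regulated small subunit of ribonucleotide reductase (ENSMUSG00000020649.11, chromosome 12, 24708241 to 24714146), was at 119, 67.5 and 172 CPM in tumours 1, 2 and 3. Tk1, the thymidine kinase of dividing cells (ENSMUSG00000025574.13, chromosome 11, 117815526 to 117826092), was at 105, 38.3 and 103 CPM in tumours 1, 2 and 3. Rrm1, the large subunit, was at 358, 231 and 266 CPM in tumours 1, 2 and 3. Tumour 2 was lowest for all 3, as 31.8% of all genes tested were. It lay below the highest tumour by 2.55-fold for Rrm2, 2.73-fold for Tk1 and 1.55-fold for Rrm1. Dut, which removes dUTP, was also lowest there (88.4, 71.8 and 111 CPM in tumours 1, 2 and 3). Macrophage markers were highest in tumour 2, and their part was not tested. Tumour 1 and tumour 3 were nearly level for Tk1, and with total-count scaling tumour 3 was the highest.

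The remaining genes of the group had other orders. Samhd1, which degrades deoxynucleotides and is abundant in resting and myeloid cells, was at 306, 357 and 551 CPM in tumours 1, 2 and 3, highest in tumour 3. Dck, the deoxycytidine salvage kinase, was at 116, 77.3 and 71.3 CPM in tumours 1, 2 and 3, highest in tumour 1. Dctd, dCMP deaminase, was at 13.2, 25.9 and 24.7 CPM in tumours 1, 2 and 3, lowest in tumour 1. The nucleoside diphosphate kinases Nme1 (47.9, 75.4 and 79.1 CPM) and Nme2 (8.46, 14.2 and 15.4 CPM) were also lowest in tumour 1. Samhd1, Dctd, Nme1 and Nme2 thus had tumour 1 as the lowest, as 35.5% of all genes tested did. The level of Nme2 is uncertain, since the readthrough gene model Gm20390 covers 48.9% of its exon bases and 12.5% of those of Nme1.

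Per kilobase, Rrm2 exceeded Rrm2b, its p53-responsive relative (19.0, 22.3 and 35.5 CPM), by a factor of 20.7, 9.98 and 16 in tumours 1, 2 and 3 (log2 3.90 ± 0.53). Tk1 over Tk2, the mitochondrial thymidine kinase (34.5, 24.1 and 49.4 CPM), was 2.09, 1.09 and 1.44 in tumours 1, 2 and 3 (log2 0.57 ± 0.47). Both ratios were lowest in tumour 2, so the enzymes of dividing cells were low there beside their relatives too. Tyms over Samhd1 was 0.331, 0.16 and 0.147 in tumours 1, 2 and 3 (log2 -2.33 ± 0.64), highest in tumour 1. Rrm2 over Rrm1 was 1.33, 1.16 and 2.57 in tumours 1, 2 and 3 (log2 0.66 ± 0.62). Its sign depended on the length used, at log2 -0.0094 with the longest transcript of each gene, so the data do not say which subunit was more abundant. The order of the tumours does not depend on length, and Rrm2 was highest beside Rrm1 in tumour 3.

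Upstream bases of the reductase subunits and Tyms are shown because these S phase genes were all lowest in tumour 2. They are again the 100 bases before the RefSeq start (GRCm38.p6). CCAAT is in capitals for Rrm1 (chr7:102441595-102441694, plus strand) and Rrm2 (chr12:24708154-24708253, plus strand). The E-box CACGTG is in capitals for Tyms (chr5:30073626-30073725, minus strand). Exons annotated in GENCODE overlap 13 of the bases shown for Rrm2.
Rrm1: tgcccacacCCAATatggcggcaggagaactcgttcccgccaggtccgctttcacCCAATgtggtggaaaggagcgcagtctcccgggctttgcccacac
Rrm2: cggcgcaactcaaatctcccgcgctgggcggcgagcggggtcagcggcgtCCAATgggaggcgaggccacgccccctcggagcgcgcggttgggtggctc
Tyms: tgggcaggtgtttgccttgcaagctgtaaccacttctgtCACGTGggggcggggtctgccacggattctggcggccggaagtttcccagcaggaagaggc
The E-box CACGTG, which reads the same on both strands, was found within 250 bases upstream at 7 of the 44 starts (15.9%). These starts belong to 6 genes: Atic, Impdh2, Nme1, Paics, Sms and Tyms. Nme1 has matches 18 and 29 bases before a start, and starts of the same gene are not separate. The E-box was in 8.59% of the promoters of genes tested and in 6.02% of all promoters. The E2F forms TTTCGCGC and TTTGGCGC, searched on both strands, were in no member's window (0.548% and 0.817% of the promoters of genes tested). These letters were searched in this window only.

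Polyamine synthesis was the group with the widest median spread and was lowest in tumour 3 for all 3 genes, as 32.6% of all genes were. Odc1, ornithine decarboxylase, the first enzyme and a classical Myc target (ENSMUSG00000011179.8, chromosome 12, 17544794 to 17551505), was at 436, 241 and 145 CPM in tumours 1, 2 and 3. The 3 tumours were well apart, with a range of 3.01-fold. Srm (ENSMUSG00000006442.10, chromosome 4, 148591503 to 148594993) was at 199.6, 406 and 139 CPM in tumours 1, 2 and 3, highest in tumour 2, with a range of 2.92-fold. Sms, spermine synthase, was at 36.6, 49.3 and 33.1 CPM in tumours 1, 2 and 3. The median SD of log2 CPM was 0.79 for these 3 genes. Per kilobase, Srm exceeded Sms by a factor of 20.5, 31.0 and 15.8 in tumours 1, 2 and 3 (log2 4.43 ± 0.49). Of the 50-base stretches of Odc1, 24.3% occur in transcripts of other genes, mostly pseudogenes such as Gm7993, and 17.5% of those of Sms, mostly in Sms-ps.

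Growth and stress genes from lists outside the pathway are set beside these orders. Of 20 proliferation genes, 17 were lowest in tumour 2 (31.8% of all genes were), and the median of log2 CPM minus the 3-tumour mean was 0.17, -0.49 and 0.33 in tumours 1, 2 and 3. Mki67 (1023, 476 and 1018 CPM) and Top2a (636, 325 and 945 CPM) led that list. Of the 37 synthesis genes 8 had that lowest tumour, with Tyms, Rrm1, Rrm2, Tk1 and Dut among them, and 29 did not. Of 12 Myc and ribosome biogenesis genes, all 12 were highest in tumour 2 (29.5%), with medians of -0.10, 0.31 and -0.23 in tumours 1, 2 and 3. Ncl (1114, 1218 and 1095 CPM) and Myc itself (704, 986 and 659 CPM) led that list. Of the 37 synthesis genes 14 had that highest tumour, with Srm, Prps2, Adsl, Ppat, Ctps and Shmt2 among them. The other 23 did not, among them Odc1, which was highest in tumour 1.

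Of 12 genes of the amino acid stress response, which ATF4 controls, 8 passed the filter, and 5 of these were lowest in tumour 3 (32.6% of all genes were), 2 in tumour 1 and 1 in tumour 2. Over all 12 the median of log2 CPM minus the 3-tumour mean was 0.23, 0.62 and -1.05 in tumours 1, 2 and 3. Atf4 was at 606, 678 and 317 CPM in tumours 1, 2 and 3, and Slc3a2, a subunit of amino acid transporters, at 198, 196 and 129 CPM. Asns, asparagine synthetase, was at 39.7, 57.9 and 9.60 CPM. Sesn2 (14.8, 40.0 and 19.2 CPM) and Trib3 (0.918, 6.26 and 1.32 CPM) were lowest in tumour 1, and Ddit4 (119.9, 24.5 and 33.5 CPM) in tumour 2. Of the 37 synthesis genes 16 were lowest in tumour 3, with Phgdh, Psat1, Shmt2, Mthfd2 and Mthfd1l among them and Psph not. The rest of the 16 were from the other groups: Prps1, Ppat, Paics, Adsl, Impdh2, Cad, Ctps, Dck, Odc1, Srm and Sms. With 3 libraries these shared orders are descriptions, and no relation between the lists and the enzymes was tested.

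**Figure D4:**
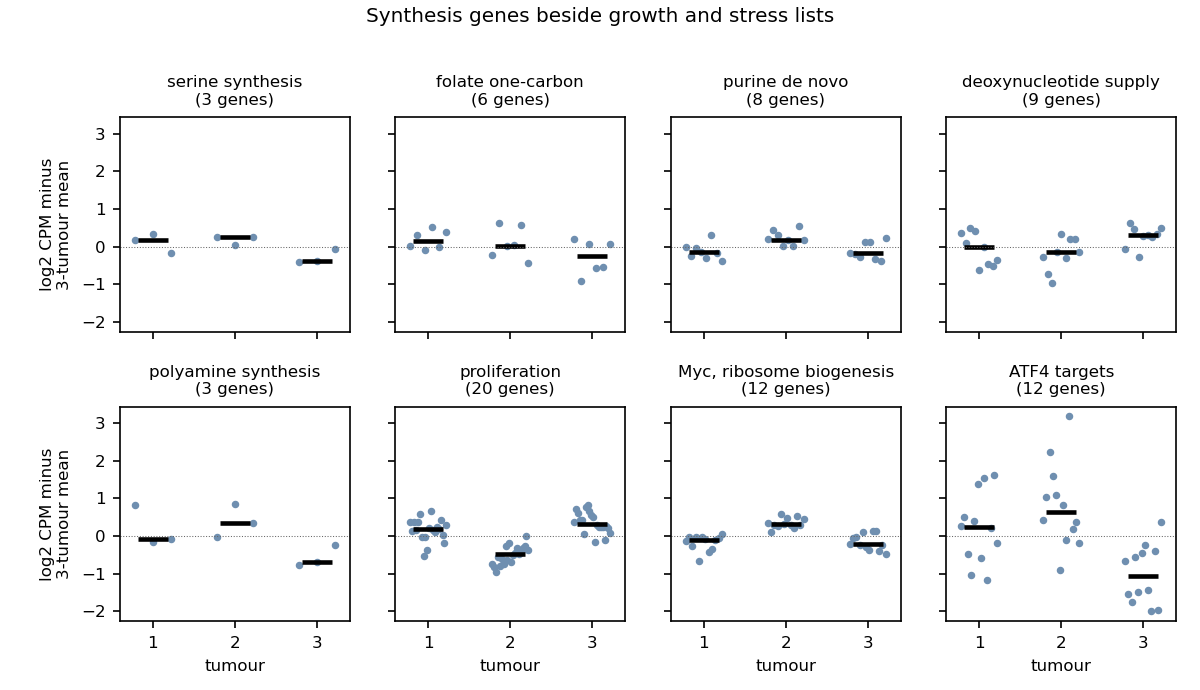
Log2 CPM minus each gene's 3-tumour mean, by tumour, for 5 groups of the synthesis genes and 3 lists outside them; points are genes and black bars medians. In tumour 2 the median lies below the mean for proliferation genes and above it for Myc and ribosome biogenesis genes. In tumour 3 the median of the ATF4 targets lies below it, with 1 of those 12 genes highest there.

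Other genes of the same pathways numbered 53 in 4 lists, of which 46 passed the filter on low counts. At 10 CPM or more in every tumour were 35 of these 46, beside 68.5% of all genes tested. In one-carbon metabolism Mat2a, which makes S-adenosylmethionine (221 ± 50 CPM), and Mat2b (97.4 ± 10.8 CPM) led. The folate carrier Slc19a1 was at 54.1, 67.5 and 31.3 CPM, and Ggh, which trims folate polyglutamates, at 33.2, 87.3 and 46.0 CPM, both highest in tumour 2. Aldh1l2, the mitochondrial formyl-tetrahydrofolate dehydrogenase, had an order of tumours like that of Impdh1. The cytosolic paralogue Aldh1l1 had no count in any tumour, which allows up to 0.197, 0.182 and 0.173 CPM (3 counts). Gldc of the glycine cleavage system had 1 count in all, although Gcsh (22.0 ± 1.44 CPM) and Amt (4.25 ± 0.564 CPM) were present. In the polyamine list Azin1, which counters the antizymes that inhibit ornithine decarboxylase (216 ± 28.8 CPM), and Sat1, which acetylates polyamines for export (55.4 ± 11.4 CPM), led. Of the 6 genes of that list that passed the filter, 5 were lowest in tumour 3 (32.6% of all genes were).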

How the data were processed

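PolyA RNA of 3 sorted lymphoma samples, enriched with oligo dT, was sequenced on the DNBseq platform as single reads of 50 nt, per the labels. Each deposited table holds unnormalised gene-level counts. The submitters' processing notes list mm10, FastQC, featureCounts 1.6.0 and STAR 2.5.2b. Which annotation release, strand setting and rule for reads with several positions applied is not given in the sources used here. No row lacked a gene name, and no other column of sample values was used.

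Library sizes were corrected by TMM (factors of 0.979, 0.999 and 1.02), computed by edgeR 4.0.16 under R 4.3.3 over the 11273 genes that passed filterByExpr, and log2 CPM used a prior count of 2. Ranges are differences of log2 CPM. At this depth the level of 3 counts is 0.197 CPM (tumour 1), 0.182 CPM (tumour 2) or 0.173 CPM (tumour 3), and the exact 95% Poisson interval around 100 counts runs from 81.4 to 122. Such intervals cover counting error only, since no molecular identifiers mark which reads came from one molecule. Exon lengths and positions came from GENCODE M21, which held 37536 of 37646 gene identifiers when versions were ignored. Upstream sequences came from RefSeq (GRCm38.p6), which had entries for 34 of the 37 genes. Shared 50-base stretches were counted over GENCODE transcripts on both strands.

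The labels give 1 group, numbered in accession order, so no test was made. The members, the other lists and the call rules were chosen with earlier results of these data known. All 37 genes are named, with per-tumour values for the leading gene of each role, for those with a 2-fold range and for the paralogue pairs. Of other lists the 2 genes of highest mean were named, with pathway genes of a 2-fold range or no count, except a few that are not reported here. Gldc, Gcsh, Amt, Asns, Ddit4, Sesn2, Trib3, Cd3e and Cd14, the upstream windows and remaining per-tumour values were chosen after values were seen. Scripts were tested on simulated data. DESeq2 1.42.0 gave size factors for an alternative. The other steps ran in Python 3.11.15 with SciPy 1.17.1, pandas 2.3.3, matplotlib 3.10.9 and NumPy 2.4.6.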

Additional observations from a re-analysis of the deposited data

How the results depend on the processing

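Each of 76 levels, counts and group medians was recomputed with total counts, with DESeq2 size factors and without the filter on low counts. All 228 values stayed within 1 SD or 1.5 times the reported one (differences of a group from its mean within 0.1 on the log2 scale), and the median gene moved by at most 0.04 on that scale. The highest or lowest tumour changed for Tk1 with total counts and for Prps2, Gmps and Cad without the filter. At 5 and 20 CPM in place of 10, the number of genes expressed in every tumour was 36 and 32. The number with a 2-fold range was 25 at a threshold of 1.5-fold and 3 at 3-fold, and 4 to 7 when a tumour was left out. With 1 tumour left out, an alternative chosen after seeing the data for these counts, the order is that of 2 tumours only. Then 14 to 20 genes were highest and 17 to 23 lowest in tumour 1, 20 to 23 highest and 14 to 17 lowest in tumour 2, and 17 highest and 20 lowest in tumour 3. Ratios of counts without division by length gave log2 -1.98 for Prps1 over Prps2, 2.17 for Rrm2 over Rrm2b, 1.11 for Tk1 over Tk2, -2.43 for Nme2 over Nme1, 2.52 for Srm over Sms and -1.33 for Rrm2 over Rrm1, the last with the opposite sign to the value per kilobase. With the length of the longest transcript they were 3.23 for Rrm2 over Rrm2b, 1.06 for Tk1 over Tk2, -0.77 for Nme2 over Nme1 and -0.0094 for Rrm2 over Rrm1, again reversed. Length enters as the same constant in every tumour, so these settings move all 3 tumours alike. No paired analysis was possible because there is only 1 group. Depth limits Impdh1 and Mthfd2l in tumour 1, with 9 and 10 counts.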

Other observations

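Of 14 genes of purine salvage and breakdown 13 passed the filter. Of these, 5 had a range of at least 2-fold (34.2% of all genes tested had), and 9 were lowest in tumour 1 (35.5% were). Hprt, which recovers hypoxanthine and guanine, was at 129.8 ± 12.3 CPM. Adenosine enzymes went different ways. Ada, adenosine deaminase, was at 7.01, 48.0 and 37.4 CPM in tumours 1, 2 and 3, whereas Adk, adenosine kinase, was at 88.4, 30.7 and 23.7 CPM in tumours 1, 2 and 3. Tumour 1 was thus lowest for the deaminase and highest for the kinase. Ampd3, an AMP deaminase, was at 49.4, 10.8 and 8.34 CPM in tumours 1, 2 and 3, highest in tumour 1. Adssl1, a muscle-type adenylosuccinate synthase, was at 27.2, 5.71 and 12.7 CPM in tumours 1, 2 and 3. Xdh, xanthine dehydrogenase, had 2, 30 and 213 counts, and Gda, guanine deaminase, 10, 63 and 32 counts. The tumour order of Xdh was that of Impdh1 and of the summed T cell markers (128, 283 and 1333 CPM). The summed neutrophil markers and the summed immediate early and heat shock genes had the same order. The part of these lists was not tested.

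In the list of pyrimidine salvage and nucleotide interconversion, 10 of 12 genes passed the filter and 3 of these had a range of at least 2-fold, near the share over all genes. Cmpk1, the UMP and CMP kinase (109.5 ± 40.7 CPM), and Uck2, a uridine-cytidine kinase (91.3 ± 14.6 CPM), led. Dguok, the mitochondrial deoxyguanosine kinase, was at 36.9, 12.3 and 42.4 CPM in tumours 1, 2 and 3, lowest in tumour 2, as was Tk2. Nt5c2, a cytosolic nucleotidase, was at 106, 63.4 and 36.0 CPM in tumours 1, 2 and 3, highest in tumour 1. Cda, cytidine deaminase, had no count in any tumour, which allows up to 0.197, 0.182 and 0.173 CPM, and Upp1, uridine phosphorylase, had 0, 1 and 7 counts. Amd1, which supplies the aminopropyl donor of spermidine, was at 12.6, 16.6 and 6.56 CPM, and Smox, spermine oxidase, had 3, 12 and 34 counts.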
